A study of Mus musculus with 19 samples.

Results

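The cytokines of the interleukin-6 family and the STAT3 pathway they switch on were followed in mouse hippocampus 4 days after kainate or saline through 10 genes: the ligand genes Lif and Cntf, the receptor genes Il6st, Lifr, Osmr and Cntfr, the kinase genes Jak1 and Jak2, the transcription factor gene Stat3 and the inhibitor gene Socs3. They were chosen by symbol, with earlier results of these data known, out of 55416 genes in the deposited count table. Every symbol matched 1 row, and 10 of 10 passed the filter on low counts that 19234 genes passed. Cytokines of this family share the receptor chain gp130, encoded by Il6st, which pairs with ligand-specific chains and carries Janus kinases on its inner side. Binding of a cytokine lets the kinases phosphorylate STAT3, which pairs up, enters the nucleus and switches on genes that include Socs3, whose product binds gp130 and the kinases and dampens the signal. In the injured brain the pathway is known for its part in turning resting astrocytes into reactive ones.

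The 19 libraries came from C57BL6 mice of 2 genotypes, both carrying the neuronal driver Synapsin1-Cre. EZH2nHom mice also carried floxed EZH2 alleles, for loss of this Polycomb methyltransferase in neurons, and WT mice did not. Status epilepticus was induced with repeated low doses of kainate, an agonist of glutamate receptors, and controls received saline. Hippocampus, labelled R. Hippocampus, was collected 4 days later, which gave 4 EZH2nHom kainate, 5 EZH2nHom saline, 5 WT kainate and 5 WT saline libraries. The driver acts in neurons, so glia and vessels of EZH2nHom mice were to keep EZH2. The labels do not state that each library is a separate mouse, so p-values measure the spread between libraries. Each gene's spread was estimated over all 4 groups together, so the error of a saline comparison also carries the spread of the kainate libraries.

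Total reads per library ran from 24496685 to 43948317. Ezh2, the targeted gene, averaged 17.5 ± 2.39 CPM (read counts scaled to library size) in EZH2nHom kainate (SD, n = 4), 13.6 ± 1.42 in EZH2nHom saline, 15.2 ± 4.53 in WT kainate and 11.2 ± 1.17 in WT saline (SD, n = 5 each), so its gene-level count, taken over all cells, was not lower in EZH2nHom and does not check the genotype labels. EZH2nHom kainate replicate 2 stood apart on the next-to-leading principal component (-108.5, against -19 to 27.5 in the other 18 libraries). The 7 hippocampal region markers, which include Prox1 of granule cells and Wfs1 of pyramidal cells, were all read, with summed levels of 495 to 1057 CPM in EZH2nHom kainate, 868 to 1003 in EZH2nHom saline, 816 to 1037 in WT kainate and 838 to 1136 in WT saline. No sample code prefix, whose meaning the labels do not give, occurred in both genotypes, so genotype and whatever the prefix stands for cannot be told apart. The groups also differed in Y-linked reads, which were under 1 CPM in 1 of 4 EZH2nHom kainate, 0 of 5 EZH2nHom saline, 2 of 5 WT kainate and 2 of 5 WT saline libraries. Structural RNA genes took 0.115 to 0.672% of the reads in EZH2nHom kainate, 0.147 to 0.676% in EZH2nHom saline, 0.0414 to 0.17% in WT kainate and 0.0282 to 0.0561% in WT saline, so the saline groups did not overlap in it.

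The promoters of the 4 members that moved together most closely are printed because STAT3 binds a short palindrome, which can be looked for in them. They run from 250 bases before to 50 after the annotated start and come from RefSeq on GRCm38.p6, an older build than the mm39 named in the submitters' processing notes. All 10 members matched this table, with 16 windows between them. Capitals mark the motif TTCNNNGAA, which reads the same on both strands and contains the stricter form TTCCNGGAA.
Socs3 (chr11:117969317-117969616, minus strand): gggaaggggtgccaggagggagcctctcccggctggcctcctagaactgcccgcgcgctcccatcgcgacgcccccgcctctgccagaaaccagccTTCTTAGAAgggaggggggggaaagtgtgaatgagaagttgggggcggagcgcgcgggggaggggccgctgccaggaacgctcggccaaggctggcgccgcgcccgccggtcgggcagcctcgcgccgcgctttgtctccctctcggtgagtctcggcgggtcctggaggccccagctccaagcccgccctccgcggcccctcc
Lif (chr11:4257318-4257617, plus strand): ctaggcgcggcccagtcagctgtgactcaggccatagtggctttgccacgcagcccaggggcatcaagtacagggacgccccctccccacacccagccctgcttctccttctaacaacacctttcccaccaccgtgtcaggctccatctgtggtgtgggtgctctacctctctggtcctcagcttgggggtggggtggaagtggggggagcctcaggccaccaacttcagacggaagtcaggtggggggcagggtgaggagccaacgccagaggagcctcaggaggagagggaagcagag
Stat3 (chr11:100939491-100939790, minus strand): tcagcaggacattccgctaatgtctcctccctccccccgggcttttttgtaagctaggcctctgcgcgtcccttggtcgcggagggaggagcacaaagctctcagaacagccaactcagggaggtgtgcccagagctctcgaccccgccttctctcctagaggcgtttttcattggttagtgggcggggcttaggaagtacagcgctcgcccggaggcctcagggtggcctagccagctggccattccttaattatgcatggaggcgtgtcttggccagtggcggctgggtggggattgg
Osmr (chr15:6874264-6874563, minus strand): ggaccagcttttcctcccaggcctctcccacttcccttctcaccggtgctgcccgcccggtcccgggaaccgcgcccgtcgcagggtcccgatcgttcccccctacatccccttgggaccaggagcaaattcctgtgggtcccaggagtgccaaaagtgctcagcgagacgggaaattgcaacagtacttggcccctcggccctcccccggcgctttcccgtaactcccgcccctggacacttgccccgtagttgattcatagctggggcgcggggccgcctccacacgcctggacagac
Of the 10 members, only Socs3 had the motif in its window, as TTCTTAGAA with its first base at -154 from the start, and 0 had the stricter form. Over 32817 promoters of this length in the table, 2722 (8.29%) held TTCNNNGAA and 377 (1.15%) held TTCCNGGAA. A match is a description of letters and not evidence of binding.

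**Figure D1:**
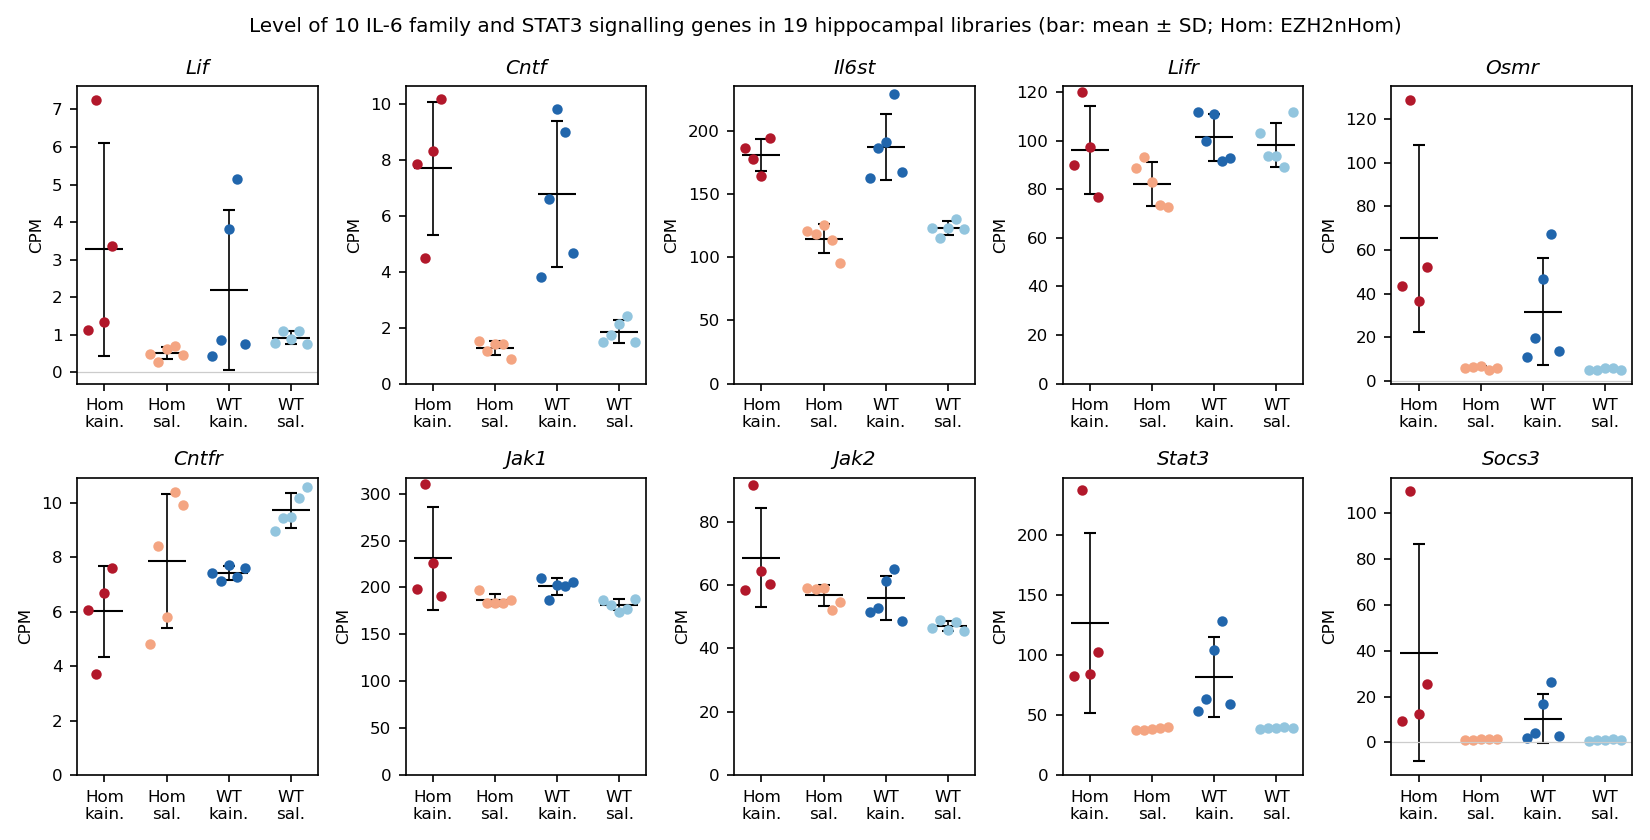
Level in CPM of the 10 genes in each library, with a panel per gene and a linear axis from 0. Points are libraries (4 EZH2nHom kainate, 5 in each other group), and the bar and whiskers give the mean ± SD. Osmr, Stat3 and Socs3 lay above every saline library of the same genotype in all 9 kainate libraries, while Lifr overlapped between all groups.

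After kainate Socs3, Osmr, Cntf, Stat3 and Il6st rose in hippocampus of both genotypes, Socs3 by the most. In the fit to all 4 groups Lif and Jak1 passed in EZH2nHom only, and the Jak1 call was lost without any of several single libraries. In EZH2nHom mice 7 of the 10 members rose and 0 fell, where 26.1% of all genes tested were called, 14.3% as higher and 11.8% as lower. In WT mice 5 rose and 0 fell, where 12% of all genes were called, 9.47% as higher and 2.57% as lower. Without EZH2nHom kainate replicate 2, 6 members passed as higher in each genotype, beside 2994 of 19514 genes in EZH2nHom and 2476 in WT. The kainate and saline libraries did not overlap for 6 members in EZH2nHom, all higher, beside 19.2% of all genes (9.93% higher, 9.23% lower). In WT this held for 6 members, 5 higher and 1 lower, beside 14.4% of all genes (9.79% higher, 4.63% lower). At an unadjusted p under 0.05 there were 8 members in EZH2nHom and 6 in WT, beside 38% and 24.6% of all genes. The median log2 change of the 10 members was 1.19 in EZH2nHom and 0.83 in WT, beside -0.02 over all genes tested in each. The members were chosen with earlier results of these data known, so these comparisons with all genes are a description. Changes are log2 fold changes, kainate over saline, with the standard error of edgeR's quasi-likelihood test, and a gene passed at a Benjamini-Hochberg adjusted p under 0.05 over all 19234 genes. In bulk tissue, fewer cells of a type and less RNA per cell cannot be told apart.

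Among the ligands, Cntf encodes ciliary neurotrophic factor, a survival factor for neurons that astrocytes make. It was read at 7.84, 4.48, 8.29 and 10.2 CPM in EZH2nHom kainate replicates 1 to 4, against 1.52, 1.16, 1.42, 1.4 and 0.892 CPM in EZH2nHom saline replicates 1 to 5. In WT it was at 3.81, 6.59, 9.8, 8.98 and 4.66 CPM after kainate, against 1.48, 1.74, 2.13, 2.42 and 1.49 CPM after saline. Every kainate library lay above every saline library of its genotype. Cntf rose by 2.59 ± 0.28 in EZH2nHom (SE, adjusted p = 8.41e-06) and by 1.86 ± 0.27 in WT (adjusted p = 0.000219). The gene overlaps Zfp91 on the same strand over 847 of its exon bases (78.9%, GENCODE M21 on GRCm38), so reads of Zfp91 may be counted as Cntf or lost to it. Zfp91 itself was at 166, 373, 174 and 183 CPM in EZH2nHom kainate replicates 1 to 4, against 169 to 211 CPM in EZH2nHom saline, and at 153 to 185 CPM in WT kainate, against 157 to 173 CPM in WT saline. Its changes after kainate were 0.24 ± 0.17 in EZH2nHom (adjusted p = 0.326) and 0.02 ± 0.16 in WT (adjusted p = 0.962), and neither passed. Without EZH2nHom kainate replicate 2 the change in EZH2nHom was -0.13 (adjusted p = 0.222).

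Lif encodes leukemia inhibitory factor, which acts through a pair of Lifr and gp130 chains. EZH2nHom kainate replicates 1 to 4 had 1.13, 7.27, 1.34 and 3.37 CPM of Lif, against 0.487, 0.29, 0.622, 0.7 and 0.476 CPM in EZH2nHom saline. WT kainate replicates 1 to 5 had 0.448, 0.858, 3.81, 5.14 and 0.746 CPM, against 0.773, 1.1, 0.895, 1.1 and 0.761 CPM in WT saline. The EZH2nHom groups did not overlap, whereas in WT replicates 3 and 4 stood above saline and the other 3 kainate libraries lay within or below its range. The saline levels rest on few reads, 7 to 23 per library in EZH2nHom and 22 to 41 in WT. Lif rose by 2.64 ± 0.64 in EZH2nHom (adjusted p = 0.00498), and by 1.89 (adjusted p = 0.0281) without replicate 2. In WT its change was 1.22 ± 0.59 (adjusted p = 0.207), which did not pass, and without WT kainate replicate 4 it was 0.64 (adjusted p = 0.616).

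Of the receptor chains, Osmr moved most. It encodes the chain that pairs with gp130 to bind oncostatin M. Osmr was at 43.6, 129, 36.5 and 52.5 CPM in EZH2nHom kainate replicates 1 to 4, against 6.17, 6.33, 7.05, 5.11 and 6.09 CPM in EZH2nHom saline. In WT it was at 11.1, 19.6, 46.9, 67.4 and 13.6 CPM after kainate, against 5.09, 5.08, 5.75, 5.76 and 5.22 CPM after saline. All kainate libraries lay above saline, and WT kainate replicates 1, 2 and 5 lay below all 4 EZH2nHom kainate libraries. Osmr rose by 3.41 ± 0.46 in EZH2nHom (adjusted p = 5.33e-05), a 10.6-fold change, and by 2.55 ± 0.44 in WT (adjusted p = 0.000874), a 5.87-fold change. The change in EZH2nHom without kainate replicate 2 was 2.84 (adjusted p = 0.000143), and without WT kainate replicate 4 the change in WT was 2.08 (adjusted p = 0.00222).

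Il6st, the shared gp130 chain, moved less but more evenly. Its level was 187, 178, 164 and 194 CPM in EZH2nHom kainate replicates 1 to 4, against 120, 118, 125, 113 and 95.4 CPM in EZH2nHom saline. WT kainate libraries had 162, 186, 191, 229 and 167 CPM, against 123, 115, 123, 130 and 122 CPM in WT saline. No kainate library overlapped the saline libraries of its genotype, and EZH2nHom kainate replicate 2 was not apart from its group. Il6st rose by 0.66 ± 0.09 in EZH2nHom (adjusted p = 7.83e-05) and by 0.61 ± 0.09 in WT (adjusted p = 0.000272).

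Lifr, the signalling chain for LIF and CNTF, ran from 77 to 120 CPM in EZH2nHom kainate, from 72.7 to 93.2 in EZH2nHom saline, from 91.7 to 112 in WT kainate and from 89.3 to 112 in WT saline. These ranges overlapped, and the changes of 0.22 ± 0.11 in EZH2nHom (adjusted p = 0.157) and 0.04 ± 0.11 in WT (adjusted p = 0.849) did not pass. Cntfr encodes the chain that captures CNTF and is the member that neurons are known for. It was at 6.05, 3.71, 6.67 and 7.62 CPM in EZH2nHom kainate, against 4.82, 8.4, 5.81, 10.4 and 9.9 CPM in EZH2nHom saline. WT kainate libraries had 7.42, 7.11, 7.73, 7.26 and 7.59 CPM, against 8.96, 9.45, 9.46, 10.2 and 10.6 CPM in WT saline. All 5 WT kainate libraries lay below all 5 WT saline libraries, as did 4.63% of all genes tested, but the change of -0.39 ± 0.19 did not pass (adjusted p = 0.216). It passed when only the WT groups were fitted (-0.39, adjusted p = 0.00688) and when the structural RNA share entered the model (-0.49, adjusted p = 0.0404). In EZH2nHom, where the groups overlapped, the change was -0.38 ± 0.20 (adjusted p = 0.178).

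Jak1 and Jak2 encode kinases bound to gp130. Jak1 was at 198, 310, 226 and 191 CPM in EZH2nHom kainate, against 198, 183, 183, 183 and 187 CPM in EZH2nHom saline, with replicate 2 far above the rest. It rose by 0.31 ± 0.10 in EZH2nHom (adjusted p = 0.0330), and this call was lost without EZH2nHom kainate replicate 2 (0.13, adjusted p = 0.117). It was also lost without EZH2nHom saline replicate 2, 3, 4 or 5, at adjusted p = 0.0625, 0.0613, 0.0590 and 0.0549. In WT, Jak1 ran from 186 to 210 CPM after kainate and from 174 to 188 CPM after saline, and its change was 0.15 ± 0.10 (adjusted p = 0.366). With only the groups compared in the fit, Jak1 passed in WT (0.16, adjusted p = 0.0498) and not in EZH2nHom (0.36, adjusted p = 0.0712). Its difference of responses did not pass (0.16 ± 0.14, adjusted p = 0.762). Jak2 ran from 58.3 to 91.6 CPM in EZH2nHom kainate, from 52 to 59.1 in EZH2nHom saline, from 48.6 to 65.1 in WT kainate and from 45.3 to 49 in WT saline. Its changes of 0.27 ± 0.11 in EZH2nHom (adjusted p = 0.0802) and 0.25 ± 0.11 in WT (adjusted p = 0.148) did not pass. The call on Jak2 in EZH2nHom moved with single libraries: it passed without EZH2nHom kainate replicate 1 (0.38, adjusted p = 0.0199) and was at 0.10 (adjusted p = 0.366) without replicate 2. It also passed without WT kainate replicate 1, 2 or 3 or WT saline replicate 2, 3, 4 or 5, at 0.31 and adjusted p between 0.0445 and 0.0499, and in WT it passed without EZH2nHom kainate replicate 2 (0.25, adjusted p = 0.0217).

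Stat3 itself, the factor on which the family's signal converges, was at 82.2, 238, 83.8 and 103 CPM in EZH2nHom kainate replicates 1 to 4, against 37.3, 37.1, 38.2, 39.2 and 39.8 CPM in EZH2nHom saline. In WT its levels were 53.1, 63, 104, 129 and 59 CPM after kainate, against 38.5, 39.3, 39.6, 40.2 and 38.9 CPM after saline. The 10 saline libraries lay between 37.1 and 40.2 CPM, and every kainate library was above them. Stat3 rose by 1.72 ± 0.28 in EZH2nHom (adjusted p = 0.000224) and by 1.05 ± 0.26 in WT (adjusted p = 0.0133). With EZH2nHom kainate replicate 2 left out the EZH2nHom change was 1.22 (adjusted p = 0.000337), and without WT kainate replicate 4 the WT change was 0.83 and no longer passed (adjusted p = 0.0528).

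Socs3, the feedback inhibitor, had the widest range of the 10 in fold, its highest library being 136 times its lowest. It was at 9.42, 110, 12.2 and 25.4 CPM in EZH2nHom kainate replicates 1 to 4, against 1.22, 0.911, 1.6, 1.64 and 1.46 CPM in EZH2nHom saline. WT kainate replicates 1 to 5 had 1.98, 3.96, 16.5, 26.2 and 2.82 CPM, against 0.806, 1.19, 0.895, 1.32 and 1.11 CPM in WT saline. The kainate libraries of a genotype differed among themselves by more than 10-fold, and the lowest of them still exceeded saline. Socs3 rose by 4.82 ± 0.80 in EZH2nHom (adjusted p = 0.000325), a 28.3-fold change, and by 3.25 ± 0.77 in WT (adjusted p = 0.00928), a 9.55-fold change. The EZH2nHom change without kainate replicate 2 was 3.5 (adjusted p = 0.000816), and without WT kainate replicate 4 the WT change was 2.55 (adjusted p = 0.0440).

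The WT calls have a further limit. In the 6 WT libraries whose code prefixes occur in both treatments (kainate replicates 1 to 4, saline replicates 2 and 4), with the prefix as a block, 0 of 18706 genes passed in edgeR, and 2167 (11.6%) had an unadjusted p under 0.05. The log2 changes there were 0.60 for Il6st, 2.18 for Osmr, 1.57 for Cntf, 0.93 for Stat3 and 2.36 for Socs3.

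**Figure D2:**
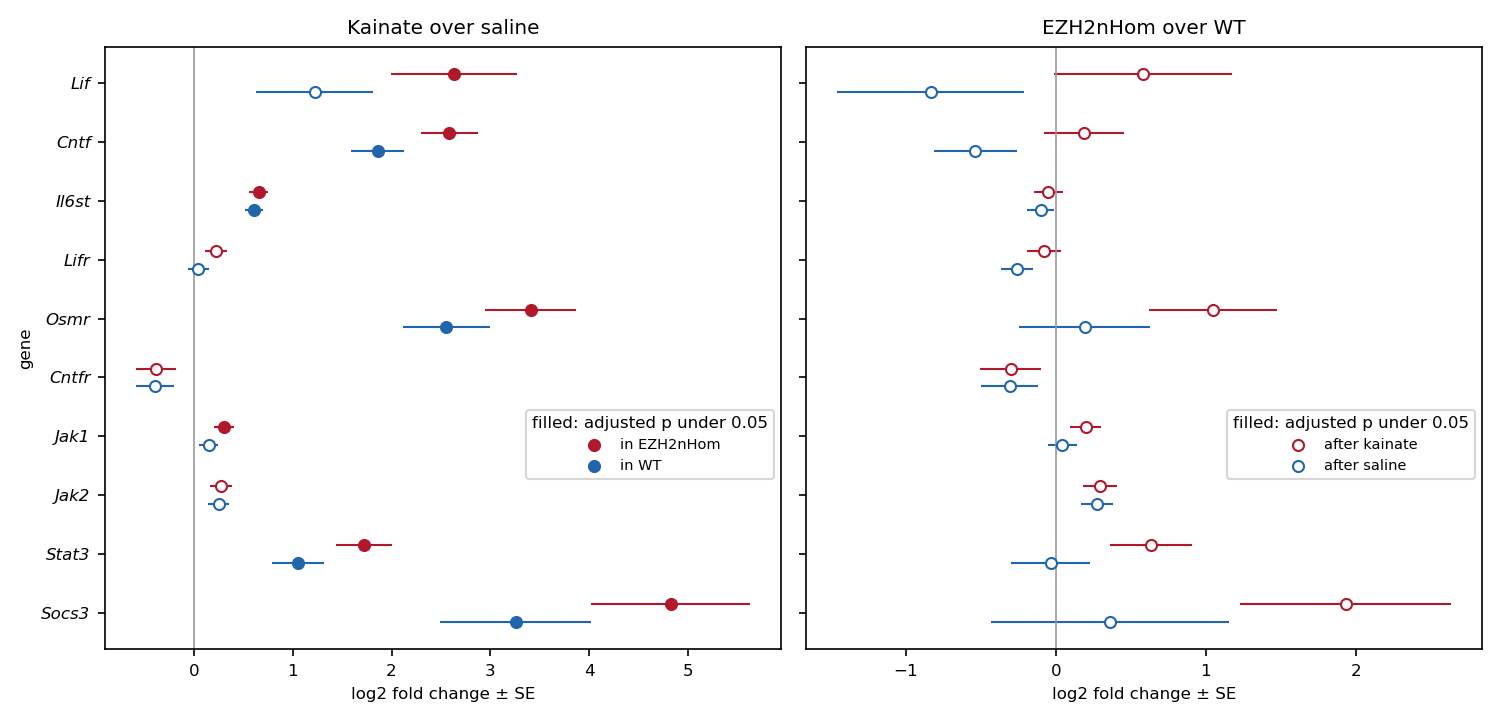
Log2 fold change ± SE of the 10 genes from the edgeR fit, kainate over saline on the left (EZH2nHom above WT) and EZH2nHom over WT on the right (after kainate above after saline), with filled points for an adjusted p under 0.05. In the left panel 7 points of EZH2nHom and 5 of WT are filled, with Socs3 at 4.82 and 3.25, and in the right panel 0 are filled.

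Set beside each other per kilobase of exon (GENCODE M21 on GRCm38), the members spanned a wide range of levels. In EZH2nHom kainate, Jak1 averaged 32.0 CPM per kilobase, Il6st 16.3, Jak2 13.6, Socs3 13.5, Stat3 13.3, Lifr 8.92, Cntf 7.17, Osmr 5.4, Cntfr 2.16 and Lif 0.753. In WT kainate Jak1 was at 27.9, Il6st at 16.9, Stat3 at 8.57, Socs3 at 3.57 and Osmr at 2.62 CPM per kilobase. In WT saline Jak1 was at 25.1 and Il6st at 11.1 CPM per kilobase, while Osmr (0.444), Socs3 (0.368) and Lif (0.213) were the 3 lowest. The place of Socs3 beside Jak2 in EZH2nHom kainate rests on replicate 2, since the median of the 4 libraries was 18.8 CPM and their mean 39.2 CPM.

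The kainate libraries of a group differed from each other along the same lines for several members. WT kainate replicates 4 and 3 had the highest and next highest levels of Il6st, Osmr, Stat3, Socs3, Lif and Jak2, and replicate 1 had the lowest of Il6st, Osmr, Cntf, Lif, Stat3 and Socs3. EZH2nHom kainate replicate 2 had the highest Osmr, Lif, Stat3, Socs3, Jak1, Jak2 and Lifr of its group and the lowest Cntf and Cntfr. Over 19 libraries the deviations of log2 CPM from the group means correlated at 0.98 between Socs3 and Lif, 0.97 between Socs3 and Stat3, 0.94 between Socs3 and Osmr and 0.94 between Stat3 and Osmr (Pearson). Over the 18 libraries without EZH2nHom kainate replicate 2 these were 0.98, 0.97, 0.93 and 0.97. With Stat3, Cntf correlated at 0.09 and Il6st at 0.42 over the 19 libraries. Both values include EZH2nHom kainate replicate 2, which had the highest Stat3 and the lowest Cntf of its group. The other libraries of that group ranked alike in Cntf and Stat3. In WT kainate both genes were lowest in replicate 1 and highest in replicates 3 and 4. These points share libraries and their scaling, and they are a description.

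Among 15256 genes with a mean of at least 1 CPM, those whose deviations were most like those of Stat3 were Ccn1 (0.991), a matricellular gene, Saa3 (0.986), an acute-phase gene, Plce1 (0.979), the proliferation factor Myc (0.974) and the stress kinase Mapkapk2 (0.973). For Socs3 they were Lif (0.978) and Stat3 (0.967), followed by Sbno2 (0.965), Mapkapk2 (0.958) and Amotl1 (0.957). For Osmr they were the intermediate filament gene Nes (0.971), the membrane linker Msn (0.967), Asah1 (0.957) and the macrophage genes Msr1 (0.956) and Spp1 (0.956). The 15 values lay between 0.936 and 0.985 with EZH2nHom kainate replicate 2 left out.

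**Figure D3:**
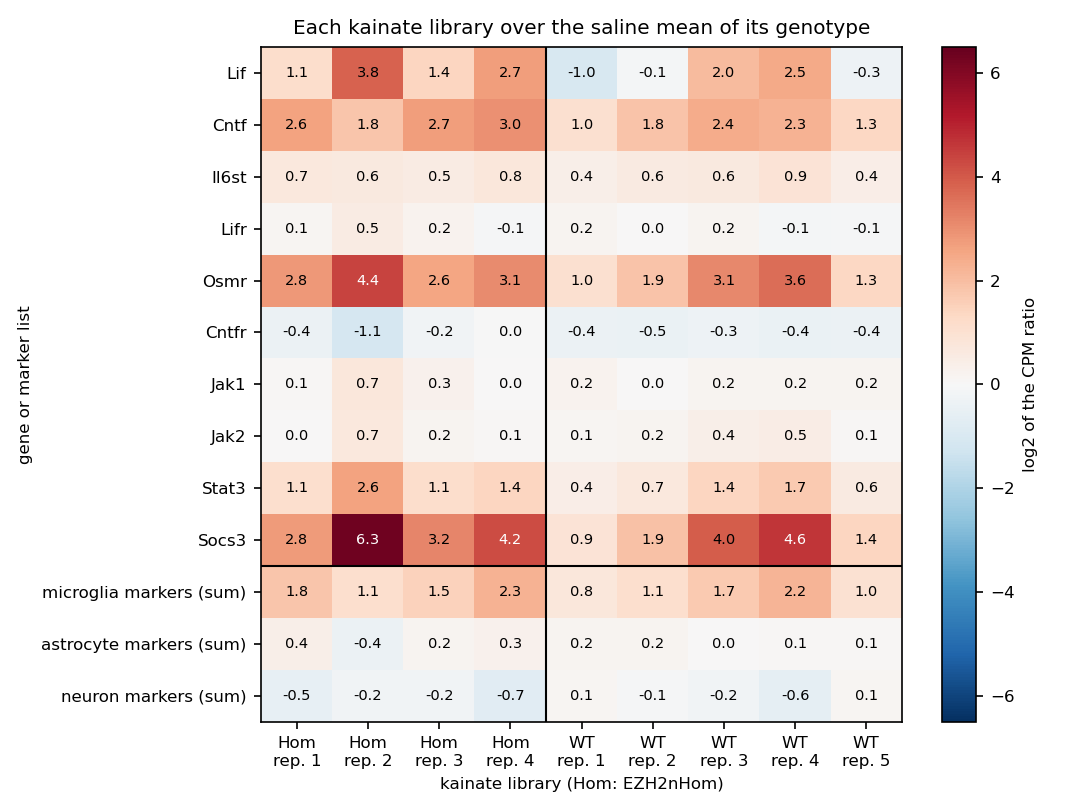
Log2 ratio of CPM in each of the 9 kainate libraries to the saline mean of the same genotype, for the 10 genes (above the line) and the summed markers of 3 cell types (below it), with EZH2nHom left of WT and a printed value in each cell. Socs3 runs from 2.8 to 6.3 in EZH2nHom and from 0.9 to 4.6 in WT, and the microglia sum from 1.1 to 2.3 in EZH2nHom and from 0.8 to 2.2 in WT.

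Markers of other cell types moved with these results. The 8 microglia markers summed to 701 to 1584 CPM in EZH2nHom kainate, against 295 to 342 in EZH2nHom saline, with 7 of 8 passing higher. They summed to 630 to 1757 CPM in WT kainate, against 357 to 400 in WT saline, with 8 of 8 passing higher. Within WT kainate the microglia sum (630, 784, 1219, 1757 and 741 CPM in replicates 1 to 5) ranked the libraries as Socs3 and Osmr did. Within EZH2nHom kainate it did not: replicate 2, highest in Socs3, had the lowest sum (701 CPM, against 1146, 934 and 1584 in replicates 1, 3 and 4).

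The 8 astrocyte markers summed to 3747 to 6342 CPM in EZH2nHom kainate, against 4574 to 5053 in EZH2nHom saline, and to 6214 to 6878 in WT kainate, against 5731 to 6391 in WT saline. Of them 4 passed higher in EZH2nHom and 3 in WT. The 8 neuron markers summed to 2378 to 3434 CPM in EZH2nHom kainate, against 3801 to 4192 in EZH2nHom saline, and 4 passed lower. In WT they summed to 2321 to 3778 CPM after kainate, against 3254 to 3650 after saline, and 1 passed lower. The 8 blood leukocyte markers, of which 6 could be tested, summed to 5.45 to 29.2 CPM in EZH2nHom kainate, against 0.76 to 4.43 in EZH2nHom saline, and to 2.46 to 26.6 in WT kainate, against 1.63 to 4.47 in WT saline. They passed higher for 4 markers in EZH2nHom and 3 in WT, and 1 marker had no read in WT saline. Of the 5 red cell markers 0 passed in EZH2nHom (103 to 434 CPM after kainate, against 158 to 400 after saline) and 5 passed higher in WT (552 to 1974 CPM after kainate, against 258 to 770 after saline). Of 7 hippocampal region markers 3 passed lower in each genotype, and their lowest sum, 495 CPM, was that of EZH2nHom kainate replicate 2. Of 6 oligodendrocyte markers 4 passed lower in EZH2nHom and 0 in WT, and of 3 precursor markers 1 passed lower in WT. Markers of endothelium (6), of pericytes and fibroblasts (7) and of choroid plexus (3) passed in neither genotype. The choroid plexus sum ran from 11.8 to 659 CPM in EZH2nHom kainate, from 32.9 to 3579 in EZH2nHom saline, from 26 to 1120 in WT kainate and from 18 to 3834 in WT saline. All other markers of these lists were read in every group, and the part of these cell types in the members' changes was not tested.

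The rest of the pathway was described through lists that were chosen with earlier results of these data known. Of the other family ligands, 5 of 10 had enough reads for the test. Clcf1, cardiotrophin-like cytokine factor, which binds Cntfr, rose by 4.60 ± 0.83 in EZH2nHom (adjusted p = 0.000527), and by 3.43 (adjusted p = 0.00211) without kainate replicate 2. Its levels were 1.48, 12, 2.24 and 2.2 CPM in EZH2nHom kainate replicates 1 to 4, against 0.108 to 0.304 CPM in EZH2nHom saline. In WT they were 0.864, 1.22, 2.43, 9.61 and 0.533 CPM after kainate, against 0.367 to 0.516 CPM after saline. The WT groups did not overlap, and Clcf1 rose there by 2.77 ± 0.73 (adjusted p = 0.0176), a call lost without WT kainate replicate 4 (1.55, adjusted p = 0.115).

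Osm, the ligand of the Osmr chain, was read 9 to 34 times per library in EZH2nHom kainate, against 0 to 5 times in EZH2nHom saline, and 5 to 36 times in WT kainate, against 1 to 5 times in WT saline. It rose by 2.50 ± 0.74 in EZH2nHom (adjusted p = 0.0174) and by 2.59 ± 0.76 in WT (adjusted p = 0.0302). The EZH2nHom call was lost without kainate replicate 2 (1.90, adjusted p = 0.0644). The WT call was lost without kainate replicate 3 (2.58, adjusted p = 0.0579) or 4 (1.71, adjusted p = 0.159) and without saline replicate 2, 3, 4 or 5, at adjusted p = 0.0807, 0.0738, 0.0699 and 0.0544. Ebi3, a subunit of interleukin-27, rose in EZH2nHom by 1.54 ± 0.34 (adjusted p = 0.00272) and had 0.69 ± 0.34 in WT (adjusted p = 0.212). Il6 itself stayed under the filter, with 9 reads over all EZH2nHom kainate libraries, 8 over EZH2nHom saline, 12 over WT kainate and 4 over WT saline, and Ctf2 and Il31 had 0 reads in all 19 libraries. A change in Il6 was not detectable at this depth.

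Of 5 other receptor genes, Il6ra, the chain that captures interleukin-6, rose in EZH2nHom by 1.17 ± 0.22 (adjusted p = 0.000619), with 9.59, 14.6, 7.55 and 9.93 CPM after kainate, against 3.54 to 5.51 CPM after saline. In WT it was at 6.69 to 14.4 CPM after kainate, against 5.25 to 6.02 CPM after saline, and its 0.58 ± 0.20 did not pass (adjusted p = 0.0738). The other 4 receptor genes passed in neither genotype. Of the other kinases, Jak3 of blood and immune cells rose by 2.08 ± 0.40 in EZH2nHom (adjusted p = 0.000917) and by 1.79 ± 0.39 in WT (adjusted p = 0.00443), while Tyk2 had 0.35 ± 0.20 in EZH2nHom and 0.34 ± 0.19 in WT (adjusted p = 0.209 and 0.283). Without EZH2nHom kainate replicate 2, Tyk2 passed in EZH2nHom (0.57, adjusted p = 0.00325) and Il6ra in WT (0.58, adjusted p = 0.0355).

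Among other STAT genes, Stat6, the mediator of interleukin-4 signals, rose by 1.12 ± 0.26 in EZH2nHom and by 1.19 ± 0.25 in WT (adjusted p = 0.00335 and 0.00303). Stat2 rose by 1.47 ± 0.22 in EZH2nHom (adjusted p = 8.63e-05) and by 0.77 ± 0.21 in WT (adjusted p = 0.0194), and its WT call was lost without kainate replicate 3 (0.70, adjusted p = 0.0568) or 4 (0.56, adjusted p = 0.0770). Stat5a rose by 1.20 ± 0.30 in EZH2nHom (adjusted p = 0.00643) and by 0.96 ± 0.29 in WT (adjusted p = 0.0352), a WT call lost under 8 of 28 alternatives, among them without kainate replicate 4 (0.70, adjusted p = 0.142). Stat5b, at -0.16 ± 0.17 in EZH2nHom and 0.25 ± 0.16 in WT, did not pass (adjusted p = 0.528 and 0.343). Stat4 had 1.21 ± 0.47 in EZH2nHom (adjusted p = 0.0640) and 1.23 ± 0.47 in WT (adjusted p = 0.103).

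Of 16 other inhibitors of the pathway, 3 rose and 1 fell in EZH2nHom, beside 14.3% higher and 11.8% lower of all genes, and 1 rose in WT, beside 9.47% of all genes, so these shares were near the background or below it. Ptpn6, the phosphatase SHP-1 of blood and microglial cells, rose by 2.37 ± 0.42 in EZH2nHom (adjusted p = 0.000448) and by 2.22 ± 0.40 in WT (adjusted p = 0.00123). Ptpn1, a phosphatase of Jak2, rose by 0.63 ± 0.11 in EZH2nHom (adjusted p = 0.000326) and was at 0.27 ± 0.10 in WT (adjusted p = 0.0985). The calls on Socs6 (0.42 ± 0.15, adjusted p = 0.0415) and Socs5 (-0.24 ± 0.08, adjusted p = 0.0356) in EZH2nHom were lost under 8 and 18 of 27 alternatives, and without kainate replicate 2 they were 0.14 (adjusted p = 0.211) and -0.22 (adjusted p = 0.0573). Socs1, another feedback inhibitor of Janus kinases, did not pass, with 1.05 ± 0.45 in EZH2nHom and 1.18 ± 0.43 in WT (adjusted p = 0.0945 and 0.0857).

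Of 30 genes known to be induced through STAT3, 28 could be tested. Of these, 25 rose and 0 fell in EZH2nHom, with a median log2 change of 2.46, and 15 rose and 0 fell in WT, with a median of 1.43. Over all genes 14.3% rose in EZH2nHom and 9.47% in WT, with a median of -0.02 in each. Without EZH2nHom kainate replicate 2 the counts were 22 in EZH2nHom and 21 in WT. The WT count ran from 12 to 21 without single libraries and was 0 with the code prefix as a block. Gfap, the astrocyte intermediate filament, was at 2672 to 4842 CPM in EZH2nHom kainate, against 259 to 358 CPM in EZH2nHom saline, and at 1916 to 4423 CPM in WT kainate, against 329 to 350 CPM in WT saline. Timp1, an inhibitor of metalloproteinases, was at 22 to 60.1 CPM in EZH2nHom kainate, against 0.0812 to 0.304 CPM in EZH2nHom saline, and at 1.22 to 31.4 CPM in WT kainate, against 0.0692 to 0.216 CPM in WT saline. Vim rose by 4.52 ± 0.36 in EZH2nHom and 3.81 ± 0.34 in WT (adjusted p = 8.89e-07 and 5.14e-06), and the protease inhibitor gene Serpina3n by 4.50 ± 0.46 and 3.89 ± 0.44 (adjusted p = 6.7e-06 and 4.42e-05). Several genes of the list are markers of reactive astrocytes and answer to other signals too.

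**Figure D4:**
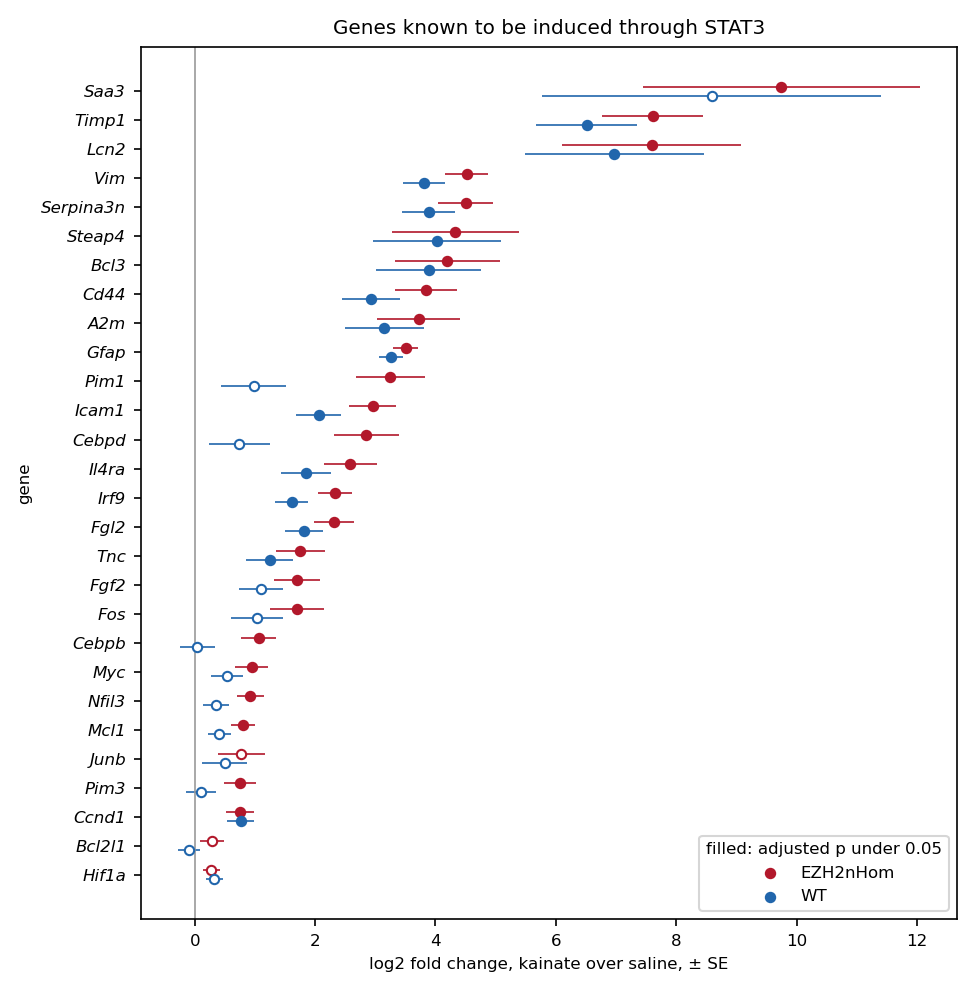
Log2 fold change ± SE, kainate over saline, of the 28 tested genes known to be induced through STAT3, with EZH2nHom above WT in each row and filled points for an adjusted p under 0.05. In EZH2nHom 25 points are filled and in WT 15, and the unfilled WT points include Cebpd at 0.74 and Pim1 at 0.98.

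The direct comparison of genotypes asks whether the pathway stood higher or lower when neurons were to lack EZH2. After kainate 0 of 10 members passed between EZH2nHom and WT, where 7.61% of all genes did (4.56% higher, 3.04% lower), and in CPM the groups overlapped for all 10 members, whereas they did not for 7.26% of all genes (4.13% higher, 3.13% lower). The share over all genes depended on the fit: when only the kainate groups were fitted, 4 of 18504 genes and 0 members passed. DESeq2's Wald test called 0 members as well. At an unadjusted p under 0.05 there were 4 members by edgeR in the fit to all groups, beside 23.9% of all genes. Socs3 was at 39.2 ± 47.5 CPM in EZH2nHom kainate (SD, n = 4) and 10.3 ± 10.7 CPM in WT kainate (SD, n = 5), a log2 difference of 1.93 ± 0.70 (edgeR adjusted p = 0.1). Osmr was at 65.4 ± 42.9 CPM in EZH2nHom kainate and 31.7 ± 24.5 CPM in WT kainate, with a difference of 1.05 ± 0.43 (adjusted p = 0.143). Stat3 was at 127 ± 74.7 CPM in EZH2nHom kainate and 81.6 ± 33.1 CPM in WT kainate, with a difference of 0.63 ± 0.27 (adjusted p = 0.167). Jak2 had a difference of 0.30 ± 0.11 (adjusted p = 0.112).

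These differences turned on single libraries in each group. Without EZH2nHom kainate replicate 2 they were 0.61 for Socs3 (adjusted p = 0.615), 0.48 for Osmr (adjusted p = 0.544), 0.13 for Stat3 (adjusted p = 0.763) and 0.13 for Jak2 (adjusted p = 0.402). Without WT kainate replicate 4, 4 members passed as higher in EZH2nHom: Socs3 at 2.64 (adjusted p = 0.0287), Osmr at 1.52 (adjusted p = 0.0219), Stat3 at 0.86 (adjusted p = 0.0440) and Jak2 at 0.36 (adjusted p = 0.0493). In that setting 1267 of 19169 genes passed as higher and 926 as lower. Without EZH2nHom kainate replicate 1, Socs3 (2.26, adjusted p = 0.0445) and Jak2 (0.36, adjusted p = 0.0486) passed. They stood beside 1274 of 19328 genes as higher and 757 as lower. The remaining 6 members had differences between -0.30 (Cntfr) and 0.58 (Lif), with adjusted p from 0.247 to 0.793. The 5 red cell markers passed as lower in EZH2nHom kainate (103 to 434 CPM) than in WT kainate (552 to 1974 CPM), while 0 of 8 microglia markers passed, and their part in these differences was not tested. Stat2 (0.69 ± 0.21, adjusted p = 0.0562) did not pass, and did without EZH2nHom kainate replicate 2 (0.81, adjusted p = 0.0347).

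Of the genes known to be induced through STAT3, 3 of 28 passed as higher in EZH2nHom than in WT after kainate and 0 as lower, beside 4.56% higher and 3.04% lower of all genes. They were Cebpd (2.13 ± 0.52, adjusted p = 0.0206) and Pim1 (2.14 ± 0.55, adjusted p = 0.0245), a transcription factor and a kinase of acute responses, and the survival gene Mcl1 (0.77 ± 0.21, adjusted p = 0.0292). Cebpd was at 7.99, 69.2, 6.84 and 21.6 CPM in EZH2nHom kainate replicates 1 to 4, against 2.18, 4.01, 9.65, 9.26 and 5.03 CPM in WT kainate. Pim1 was at 2.84, 37.1, 3.19 and 6.04 CPM in EZH2nHom kainate, against 2.05, 2.32, 3.59, 4.28 and 1.68 CPM in WT kainate. Replicate 2 was highest in each, and the groups overlapped. Without it the differences were 1.01 for Cebpd (adjusted p = 0.127), 0.53 for Pim1 (adjusted p = 0.279) and 0.35 for Mcl1 (adjusted p = 0.0846). Cebpd was also lost without WT kainate replicate 2 (2.02, adjusted p = 0.0546), and Pim1 and Mcl1 without WT kainate replicate 1 (2.05 and 0.71, adjusted p = 0.0621 and 0.0672), 2 (2.08 and 0.71, adjusted p = 0.0601 and 0.0711) or 5 (2.003 and 0.722, adjusted p = 0.0586 and 0.0656). All 3 calls were lost with a replicate block, with no filter on low counts and when only the kainate groups were fitted, where the count was 0 in each, and DESeq2's Wald test called 6. Leaving out WT kainate replicate 1 or 5 gave a count of 1, as did leaving out EZH2nHom kainate replicate 2, and without WT kainate replicate 2 it was 0. It was 7 without EZH2nHom kainate replicate 1, 5 without its replicate 3 and 11 without WT kainate replicate 4. Over all genes, 878 of 19234 passed as higher in the fit to all groups. This was 1274 of 19328, 973 of 19398 and 1267 of 19169 without those libraries in turn, and 1288 of 19217 by DESeq2's Wald test. Without WT kainate replicate 1, 2 or 5 it was 467, 439 and 590, and without EZH2nHom kainate replicate 2 it was 719.

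After saline 0 of 10 members passed between genotypes, where 13.5% of all genes did (8.33% higher, 5.16% lower). DESeq2's Wald test called 0 members as well, and 2 had an unadjusted p under 0.05 by edgeR, beside 27.4% of all genes. Stat3 was at 38.3 ± 1.18 CPM in EZH2nHom saline and 39.3 ± 0.639 CPM in WT saline (SD, n = 5 each), a difference of -0.04 ± 0.26 (adjusted p = 0.955). This SE rests on the spread over all groups, kainate libraries included. The CPM ranges of 2 members did not overlap, beside 21.3% of all genes (12.9% higher, 8.42% lower). Lif was lower, at 0.515 ± 0.157 CPM in EZH2nHom saline and 0.927 ± 0.169 CPM in WT saline, with a difference of -0.83 ± 0.62 (adjusted p = 0.431). Jak2 was higher, at 56.7 ± 3.24 CPM in EZH2nHom saline and 46.9 ± 1.59 CPM in WT saline, with a difference of 0.27 ± 0.11 (adjusted p = 0.099). When only the saline groups were fitted, 4 members passed, namely Jak2 at 0.25 (adjusted p = 0.00275) as higher and Lif at -0.86 (adjusted p = 0.0169), Lifr at -0.29 (adjusted p = 0.0160) and Cntf at -0.56 (adjusted p = 0.0456) as lower. These 4 stood beside 5604 of 17814 genes that passed in that fit (2891 higher, 2713 lower). Without EZH2nHom kainate replicate 2, Lifr (-0.26, adjusted p = 0.0471) and Jak2 (0.27, adjusted p = 0.01) passed. They stood beside 4295 of 19514 genes (2624 higher, 1671 lower). Cell type markers differed between the saline groups too. The astrocyte sum was 4574 to 5053 CPM in EZH2nHom saline and 5731 to 6391 in WT saline, with 2 of 8 markers passing lower. The microglia sum was 295 to 342 CPM in EZH2nHom saline and 357 to 400 in WT saline, with 0 of 8 passing, and the neuron sum 3801 to 4192 and 3254 to 3650 CPM, with 0 of 8 passing. These 3 sums did not overlap. Of 6 oligodendrocyte markers 2 passed higher, of 7 hippocampal region markers 2 passed higher and 1 lower, and of 7 pericyte and fibroblast markers 1 passed higher, and the part of these cell types in the members' differences was not tested.

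Of the 16 inhibitors, 2 passed higher and 2 lower in EZH2nHom than in WT after kainate, beside 4.56% higher and 3.04% lower of all genes. After saline 1 passed higher and 2 lower, beside 8.33% higher and 5.16% lower. Among them Ptpn2, a phosphatase of Jak1 and STAT proteins, was higher in EZH2nHom under each treatment. It was at 27.5, 38.4, 23.1 and 26 CPM in EZH2nHom kainate, against 16.2, 17.1, 16.5, 18.5 and 16.4 CPM in WT kainate. After saline it was at 26.8 to 31.1 CPM in EZH2nHom and at 15 to 17.1 CPM in WT. No EZH2nHom library overlapped a WT library. For each treatment apart, the genotypes did not overlap for 7.26% of all genes tested after kainate (4.13% higher) and 21.3% after saline (12.9% higher). The share of genes that were apart over both treatments together is not given here. Genotype and whatever the code prefix stands for cannot be told apart here. The differences were 0.76 ± 0.11 after kainate (adjusted p = 0.00117) and 0.81 ± 0.10 after saline (adjusted p = 5.28e-05), and the call after kainate was lost when only the kainate groups were fitted (adjusted p = 0.136). The other inhibitors that passed after kainate were Socs2 (0.48 ± 0.14, adjusted p = 0.0448), Socs5 (-0.34 ± 0.08, adjusted p = 0.0172) and Ptprt (-0.30 ± 0.09, adjusted p = 0.0420), lost under 17, 2 and 15 of 27 alternatives. After saline they were Socs4 (-0.34 ± 0.09, adjusted p = 0.0113), whose call held under all 27, and Pias3 (-0.39 ± 0.12, adjusted p = 0.0352), lost under 7. Of the genes known to be induced through STAT3, Hif1a passed after saline (0.48 ± 0.14, adjusted p = 0.0239), a call lost under 8 of 27. Without EZH2nHom kainate replicate 2 Socs2 was at 0.29 (adjusted p = 0.15), and without WT kainate replicate 1 Socs5 was at -0.29 (adjusted p = 0.0629).

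Whether kainate moved the members more in EZH2nHom than in WT was tested as the difference of the responses. Of 10 members 0 passed, and of all 19234 genes 0 passed (0% in either direction), with 1685 genes (8.76%) and 0 members at an unadjusted p under 0.05 by edgeR, while DESeq2's Wald test called 12 genes, 0 of them among the 6 members to which it gave an adjusted p. The differences, EZH2nHom minus WT, were 1.57 ± 1.06 for Socs3 (adjusted p = 0.679), 1.41 ± 0.86 for Lif (adjusted p = 0.649), 0.85 ± 0.61 for Osmr (adjusted p = 0.694), 0.72 ± 0.38 for Cntf (adjusted p = 0.604) and 0.67 ± 0.38 for Stat3 (adjusted p = 0.631). With EZH2nHom kainate replicate 2 left out they were 0.25 for Socs3, 0.67 for Lif, 0.29 for Osmr, 0.91 for Cntf and 0.17 for Stat3. For Il6st the difference was 0.05 ± 0.13 (adjusted p = 0.923).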

How the data were processed

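RNA was extracted from flash-frozen tissue with Trizol and RNeasy columns and depleted of ribosomal RNA before Illumina sequencing, per the labels' protocols. The authors deposited read counts per Ensembl gene. They also deposited a table of normalised signal, the counts divided by 1 factor per library, which served here for gene symbols and as a check. Their processing notes name build mm39, DESeq and DESeq2. Aligner, counter, annotation and strand setting are not given in the sources used here.

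Counts were fitted with edgeR 4.0.16 (TMM, filterByExpr, quasi-likelihood test, 19234 genes, R 4.3.3) in 1 model of 4 groups, with p-values adjusted by Benjamini-Hochberg across the 19234 genes and called under 0.05. Kainate was compared with saline within a genotype, EZH2nHom with WT within a treatment, and the responses with each other. CPM are counts scaled to the TMM library size. Members and gene lists were chosen with earlier results of these data known. The rule named every member, up to 4 passing genes with the smallest p from each list and comparison, and Ezh2; other list genes were named after their values were seen. Likeness is the Pearson correlation of deviations of log2 CPM (prior count 2) from group means, the 5 highest being named. The procedure was tested on simulated data. Alternatives were DESeq2 1.42.0 size factors and Wald test, other filters, fits to only the groups compared, a replicate block, a code prefix block, covariates of Y-linked reads and of structural RNA, a threshold of 0.01, and leaving out each library. Results for 1 gene of the lists are not reported here.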

Additional observations from a re-analysis of the deposited data

Results flagged for a closer look

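Among 40 groups of 4 or 5 libraries, 1 for each gene and group, 3 held a library farther from the rest than Dixon's 95% critical value allows, where chance gives about 1 in 20. EZH2nHom kainate replicate 2 had 238 CPM of Stat3, beside 82.2 to 103 CPM in the other 3 libraries of its group. It also had 110 CPM of Socs3, beside 9.42 to 25.4 CPM in those 3. This library had the lowest microglia sum (701 CPM), astrocyte sum (3747 CPM) and hippocampal region sum (495 CPM) of its group. Its oligodendrocyte (3459 CPM), choroid plexus (11.8 CPM) and red cell (103 CPM) sums were the lowest too. Its neuron (3434 CPM), endothelium (105 CPM) and oligodendrocyte precursor (157 CPM) sums were the highest of the group. The part of its cell makeup in these values was not tested. EZH2nHom saline replicate 1 had 198 CPM of Jak1, beside 183 to 187 CPM in the other 4 libraries.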

How the results depend on the processing

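Of the 10 members, 6 to 8 rose with kainate in EZH2nHom when single libraries were left out and 6 or 7 under the other alternatives. In WT 4 to 6 members passed, all as higher, without single libraries. Otherwise 4 or 5 did, except 7 in the fit to only the groups compared (6 higher, 1 lower), 6 with the structural RNA covariate (5 higher, 1 lower) and 0 with the code prefix as a block. Between genotypes after kainate the number that passed was 0 to 4 without single libraries (2 without EZH2nHom kainate replicate 1, 4 without WT kainate replicate 4) and 0 otherwise. After saline it was 0 to 2 without single libraries, 4 in the fit to only the groups compared, 2 with the structural RNA covariate and 0 otherwise. The difference of responses gave 0 members throughout.

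Same-numbered libraries correlated at 0.0767 to 0.309 in WT (4 of 5 best matched their own number) and at -0.0546 to 0.0895 in EZH2nHom (1 of 4). EZH2nHom kainate libraries carry other numbers in their column labels than in their titles, and the title numbers were used here. The numbers were not taken as pairs in the fit to all groups, and a replicate block was fitted as an alternative. With a replicate block 6 members passed in EZH2nHom, Jak1 being lost (0.28, adjusted p = 0.0906), and 5 in WT, and Jak2's difference of responses became -0.0124.

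Further signs turned, for values from -0.08 (Lifr after kainate) to 0.58 (Lif after kainate) of which none passed. With the structural RNA covariate Lifr was at 0.0238 after kainate, Stat3 at 0.0541 after saline and Jak2's difference at -0.0348, and with the Y-linked covariate Osmr was at -0.16 and Socs3 at -0.33 after saline. Without single libraries Lifr ran from -0.00827 to 0.09 in WT, from -0.20 to 0.0141 after kainate, Lif ran from -0.16 to 1.17 after kainate, Il6st from -0.0923 to 0.0321 after kainate and Jak1 from -0.0228 to 0.0505 after saline. The difference of responses ran from -0.0193 to 0.26 for Jak1, -0.15 to 0.14 for Jak2, -0.13 to 0.18 for Cntfr and -0.00744 to 0.13 for Il6st. The cause of these changes was not tested.

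Over all genes, counts moved by over 1.5 times as follows. In EZH2nHom 5012 became 3066 in the fit to only the groups compared. In WT 2316 became 0 with the prefix block and 1401, 1365 and 1518 without WT kainate replicate 3 or 4 or WT saline replicate 2. After kainate 1463 became 959 with no filter, 4 in the fit to only the groups compared, and 706, 670 and 947 without WT kainate replicate 1, 2 or 5. After saline 2596 became 5604 in that fit, 4295 without EZH2nHom kainate replicate 2 and 1675 without WT saline replicate 3. The difference of 0 became 12 by DESeq2, 4 without EZH2nHom kainate replicate 2, and 1 without EZH2nHom saline replicate 5 or WT saline replicate 1. Reads set the limits for Lif, Osm and Il6, with 7 to 41 reads of Lif per saline library.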
